A study of Mus musculus with 41 samples.

Results

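Cells given guides against Ezh2 were compared with cells given a non-targeting guide at day 11 of a differentiation of mouse embryonic stem cells towards ventral spinal cord neural progenitors. The comparison used 6 of the 41 libraries of the series, 3 of each kind, and covered 15204 expressed genes of 24410 gene symbols. The line, R1-iCas9, makes Cas9 when doxycycline is added. Doxycycline, the guide transfection and the differentiation were shared by all groups. Ezh2 cells, labelled Ezh2 KO, received a pool of 5 synthetic guide RNAs against that gene. NT cells, the control, received a commercial non-targeting guide. Differentiation ran in serum-free neural medium with bFGF, then the GSK3 inhibitor CHIR99021, then retinoic acid with SAG, an agonist of Smoothened in the Hedgehog pathway, and from day 5 with SAG alone. Ezh2 and NT libraries of days 7 and 9, and cells given guides against Eed at day 11, served for the comparisons by day and by subunit, with 3 libraries in each group. The labels name no clone, and the shares of edited and unedited cells in the transfected pool are unknown. Nothing in the labels ties replicates to independent cultures. The p-values therefore measure only the spread between libraries, which may be technical. That spread was estimated from all 41 libraries of the series. They include cells given guides against Brd8 or Nr6a1, with as few as 2 libraries in a group.

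Ezh2 is the methyltransferase of Polycomb repressive complex 2 (PRC2), which also holds Eed and Suz12 and methylates lysine 27 of histone H3 at silent genes. In a developing spinal cord, PRC2 marks many regulators of other regions, other lineages and later stages, and its loss can release them. Dorsal and ventral progenitors of the cord are set apart by Hedgehog signals from below and BMP and Wnt signals from above, and the same progenitors make neurons first and glia later.

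The 6 libraries held 11068877 to 21992476 estimated counts in Ezh2 cells and 9541162 to 12392709 in NT cells. Levels are given as CPM, the counts scaled by edgeR to a common library size. With no count, a gene could still lie as high as 0.132 to 0.263 CPM in the Ezh2 libraries and 0.232 to 0.302 CPM in the NT libraries, by counting error alone. NT replicate 3 stood apart. Its highest correlation with another NT library was 0.939, against 0.961 between the other NT libraries, and it had 82 genes at 0 whose mean over the series exceeded 50 counts. Ezh2 libraries had 15899 ± 542 genes with a count and NT libraries 14398 ± 743 (SD, n = 3 each). The labelled identity, neural progenitor, was checked against markers. Sox2, a progenitor factor, averaged 193 ± 10.0 CPM in Ezh2 cells and 200.0 ± 26.8 CPM in NT cells. Summed over 16 neural progenitor genes, levels were 4056 to 4272 CPM in Ezh2 libraries and 4554 to 4680 CPM in NT libraries, without overlap. Neurons were present in both groups, with Tubb3, a neuronal tubulin, at 957 ± 41.9 CPM in Ezh2 cells and 883 ± 41.3 CPM in NT cells (SD, n = 3 each). Summed markers of mesoderm reached 125 to 203 CPM in Ezh2 cells and 119 to 220 CPM in NT cells, and summed pluripotency markers 26.8 to 60.5 CPM in Ezh2 cells and 48.6 to 52.2 CPM in NT cells. The pluripotency sum includes Esrrb, which was higher in Ezh2 cells, while the median log2 fold change of that list was -0.98. The markers Msgn1, Mesp1, Alb, Cer1, Gata1 and Aif1 had 0 counts in all 6 libraries. In these bulk samples fewer cells of a type and less RNA per cell cannot be told apart.

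At day 11, 1203 genes differed (7.91% of the genes tested), 793 of them higher in Ezh2 cells (5.22%) and 410 lower (2.7%), by edgeR's quasi-likelihood test with Benjamini-Hochberg adjusted p under 0.05. The median log2 fold change over all genes tested was 0.03. Changes of at least 2-fold were mostly upward, with 225 genes higher (1.48%) and 43 lower (0.283%). The 225 higher genes had a median of 11.5 CPM in Ezh2 cells and 3.55 CPM in NT cells, and 27.1% of them were under 1 CPM in NT cells, as were 14.0% of all genes. The 43 lower genes had a median of 29.1 CPM in NT cells, against 19.2 CPM for all genes. NT replicate 3 bore on the count, which was 702 without it (469 higher and 233 lower, 631 of them among the 1203 calls). With a fit to the 6 libraries alone the count was 806 and its balance shifted, to 392 higher and 414 lower.

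Transcript of the targeted gene was not reduced. Ezh2 (chr6:47530139-47595341, minus strand, mm10) stood at 186, 153 and 190 CPM in Ezh2 libraries and at 152, 138 and 118 CPM in NT libraries. The lowest Ezh2 library was just above the highest NT library. The log2 fold change was 0.37 ± 0.0919 (SE; adjusted p = 0.00736), and the call was lost without Ezh2 replicate 3 (adjusted p = 0.0615), without NT replicate 3 (adjusted p = 0.103) and with only the groups compared. Small insertions and deletions need not lower a transcript, and whether the gene was edited cannot be read from these levels. Of the other PRC2 subunits 1 of 10 passed (background 7.91% in either direction). It was Rbbp4, a histone-binding subunit, at 236, 213 and 246 CPM in Ezh2 libraries and 199, 190 and 194 CPM in NT libraries (log2 fold change 0.26 ± 0.0633, adjusted p = 0.00765). The Rbbp4 call was lost without Ezh2 replicate 3 (0.0713), with only the groups compared (0.0989) and with low counts kept (0.0625). Eed averaged 18.5 ± 1.79 CPM in Ezh2 cells and 14.5 ± 0.882 CPM in NT cells and did not pass (adjusted p = 0.126). Ezh1, the second methyltransferase of the complex, averaged 24.7 ± 4.31 CPM in Ezh2 cells and 24.2 ± 1.56 CPM in NT cells (adjusted p = 0.961). None of 20 subunits of PRC1, the partner complex that ubiquitinates histone H2A, passed by edgeR or DESeq2 with all libraries (2 were lower at an unadjusted p under 0.05), and 1 was called lower without Ezh2 replicate 2. Their median log2 fold change was -0.03. Among 9 enzymes of DNA methylation, Uhrf1, which guides the maintenance methyltransferase to replicating DNA, rose in Ezh2 cells (78.3 ± 2.14 CPM, against 43.8 ± 5.99 CPM in NT cells, log2 fold change 0.83 ± 0.127, adjusted p = 2.91e-05). Dnmt1, that methyltransferase, was also called higher (0.29) and Tet1, an enzyme of demethylation, lower (-0.28), and both calls were lost when Ezh2 replicate 2 or 3 or NT replicate 2 or 3 was left out, and that of Tet1 also without Ezh2 replicate 1 (adjusted p up to 0.154 for Dnmt1 and 0.168 for Tet1) or both with only the groups compared (0.0646 and 0.0515).

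**Figure D1:**
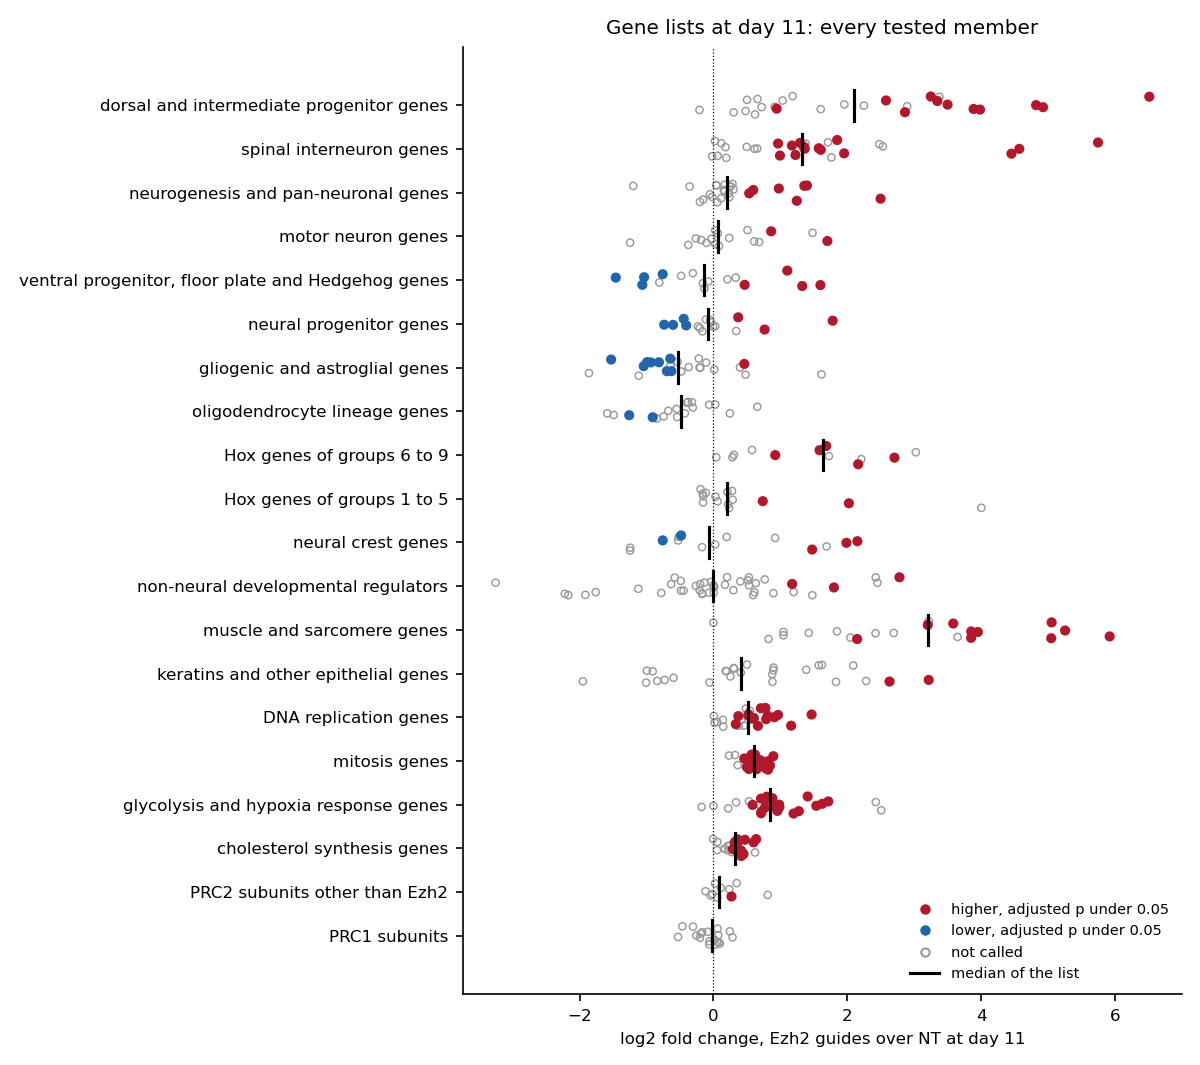
Log2 fold change, Ezh2 over NT cells at day 11, of every tested member of 20 gene lists (1 point per gene; red higher and blue lower with adjusted p under 0.05, open circles not called, black bar the list median; a gene with no counts in 1 group is placed at its bound). Dorsal, interneuron, trunk Hox, muscle, replication, mitosis and glycolysis genes lie mainly to the right, and gliogenic genes mainly to the left.

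Many genes of dorsal and intermediate progenitors rose. Of 26 tested, 11 rose in Ezh2 cells and 0 fell (background 5.22% and 2.7%), and their median log2 fold change was 2.72, or 2.10 with genes absent from NT cells placed at their bound. The list had 7 calls without Ezh2 replicate 1 and 7 without NT replicate 3. Pax3 (chr1:78101267-78197134, minus strand), a homeodomain factor of the dorsal neural tube, measured 14.7, 14.3 and 20.8 CPM in Ezh2 libraries and 1.39, 0.186 and 0 CPM in NT libraries. All 3 Ezh2 libraries lay far above the highest NT library, and the Pax3 log2 fold change was 4.82 ± 0.657 (adjusted p = 5.68e-06). Its relative Pax7 had 180 counts over the Ezh2 libraries and 1 over the NT libraries, a ratio of rates of 112 (adjusted p = 0.000585). The exact binomial 95% limits of that ratio, for counting error alone, were 19.8 and 4428. Dbx1 and Dbx2, homeodomain factors of intermediate progenitors, also rose. Dbx1 (chr7:49631499-49636849, minus strand) measured 58.3, 43.4 and 77.0 CPM in Ezh2 libraries and 17.0, 9.92 and 2.21 CPM in NT libraries, 5.97-fold higher in Ezh2 cells (log2 fold change 2.58 ± 0.35, adjusted p = 5.43e-06). The groups did not overlap, and the NT libraries spread more widely than the Ezh2 libraries in proportion. Prdm12 (chr2:31640037-31655795, plus strand), a regulator of V1 interneuron progenitors, measured 13.2, 17.0 and 9.75 CPM in Ezh2 libraries and 0.542, 2.78 and 0.905 CPM in NT libraries (3.25 ± 0.621, adjusted p = 0.000569).

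Calls of the most dorsal genes depended on single libraries. Atoh1, the factor of the dorsalmost interneuron progenitors, measured 8.60, 1.54 and 0.790 CPM in Ezh2 libraries and had no count in any NT library. Ezh2 replicate 1 carried most of it. Atoh1 was at least 30.4-fold higher in Ezh2 cells, against 3 counts over the NT group (adjusted p = 0.0227; 0.103 without Ezh2 replicate 1, and 0.0647 to 0.0856 without any 1 of the NT libraries). Wnt1, a signal of the roof plate, followed the same order of libraries with 17.3, 4.37 and 2.24 CPM in Ezh2 cells and 0, 1.48 and 0 CPM in NT cells (3.98 ± 1.05, adjusted p = 0.0126; 0.133 without Ezh2 replicate 1, and 0.0679 and 0.0826 when NT replicate 1 or 3 was left out). Msx1, Msx3, Irx3 and Prdm13 made up the other called members, with log2 fold changes of 0.94 to 3.89. Among members that did not pass, Olig3 averaged 9.05 ± 1.12 CPM in Ezh2 cells and 6.50 ± 2.96 CPM in NT cells (adjusted p = 0.522). Zic1 averaged 41.1 ± 15.3 CPM in Ezh2 cells and 21.7 ± 3.22 CPM in NT cells and missed the threshold (adjusted p = 0.0641).

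Sequence upstream of 4 genes is shown because dorsal and muscle genes, lists with many members higher in Ezh2 cells, differ in how often their promoters hold CG, the pair of letters at which mammalian DNA is methylated and whose density marks CpG islands. The windows are the 250 bases before the start that RefSeq annotates, read 5′ to 3′ on the gene's strand, from RefSeq on GRCm38.p6, with each CG in capitals. The gene spans given here are GENCODE's, which take in longer transcripts. The GENCODE spans of Dbx1, Actc1 and Myl1 begin before the RefSeq start, so that all or part of those windows lies inside them. Dbx1 and Prdm12 are dorsal and intermediate genes, and Actc1 and Myl1 encode a sarcomere actin and a myosin light chain.
Dbx1: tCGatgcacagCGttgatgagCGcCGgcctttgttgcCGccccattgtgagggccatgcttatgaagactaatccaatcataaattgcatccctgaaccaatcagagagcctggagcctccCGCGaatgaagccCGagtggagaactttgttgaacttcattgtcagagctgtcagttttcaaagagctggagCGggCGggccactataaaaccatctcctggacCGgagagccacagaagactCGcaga
Prdm12: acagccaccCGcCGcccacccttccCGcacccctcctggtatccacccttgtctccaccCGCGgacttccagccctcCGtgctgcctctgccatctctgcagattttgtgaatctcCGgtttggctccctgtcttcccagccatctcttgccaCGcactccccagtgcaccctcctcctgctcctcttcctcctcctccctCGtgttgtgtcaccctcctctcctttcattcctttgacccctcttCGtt
Actc1: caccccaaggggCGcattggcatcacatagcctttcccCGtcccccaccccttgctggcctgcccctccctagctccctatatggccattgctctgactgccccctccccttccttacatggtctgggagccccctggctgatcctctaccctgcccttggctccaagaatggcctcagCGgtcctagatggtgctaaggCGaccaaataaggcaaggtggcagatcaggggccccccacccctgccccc
Myl1: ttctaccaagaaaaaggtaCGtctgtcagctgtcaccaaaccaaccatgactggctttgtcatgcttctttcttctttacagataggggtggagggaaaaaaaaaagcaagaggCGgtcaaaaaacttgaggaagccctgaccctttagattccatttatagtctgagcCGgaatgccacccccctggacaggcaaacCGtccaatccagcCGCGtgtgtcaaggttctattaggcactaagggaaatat
The windows are Dbx1 at chr7:49636836-49637085 (minus strand, 12 CG), Prdm12 at chr2:31639787-31640036 (plus strand, 10 CG), Actc1 at chr2:114052876-114053125 (minus strand, 4 CG) and Myl1 at chr1:66945057-66945306 (minus strand, 6 CG). CG reads the same on both strands. Counted over 300 bases (250 before to 50 after the start), 18 of the 21 dorsal genes with a window (85.7%) held at least 10 CG, with a median of 17. Of the 18 muscle genes with a window 4 did (22.2%), with a median of 6. Windows were at hand for 11352 of the 15204 genes tested (74.7%), and 79.4% of those windows held at least 10 CG. The share of the dorsal genes was near that of all windows. Where RefSeq gave a gene several windows, the first by position was counted. A count of CG describes the letters only.

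The ventral program moved in both directions. Of 16 ventral progenitor, floor plate and Hedgehog genes 4 rose and 4 fell (background 5.22% and 2.7%), with a median log2 fold change of -0.15. Olig2 (chr16:91225457-91228677, plus strand), the factor of motor neuron and oligodendrocyte progenitors, measured 159, 145 and 137 CPM in Ezh2 libraries and 255, 268 and 223 CPM in NT libraries. Every Ezh2 library was below every NT library (-0.76 ± 0.161, adjusted p = 0.00174). Nkx2-2, the factor of the p3 domain beside the floor plate, fell to 34.9 ± 2.52 CPM in Ezh2 cells, against 71.6 ± 5.36 CPM in NT cells (-1.04 ± 0.226, adjusted p = 0.00226). Sim1, a factor of the V3 interneurons made there, fell to 29.1 ± 3.29 CPM in Ezh2 cells, against 60.7 ± 8.93 CPM in NT cells (-1.06 ± 0.247, adjusted p = 0.00418). Shh itself measured 8.60, 7.15 and 4.70 CPM in Ezh2 libraries and 10.8, 16.4 and 28.9 CPM in NT libraries (-1.46 ± 0.432, adjusted p = 0.0279), a call lost without NT replicate 3 (0.253), Ezh2 replicate 3 (0.15) or Ezh2 replicate 2 (0.0754). The Gli genes, which encode the transcription factors of the Hedgehog pathway, rose. Gli3, mainly a repressor, measured 70.6, 60.9 and 78.6 CPM in Ezh2 libraries and 17.7, 28.2 and 23.8 CPM in NT libraries (1.60 ± 0.233, adjusted p = 1.42e-05). Gli1, itself a target of the pathway, averaged 46.3 ± 1.49 CPM in Ezh2 cells and 18.4 ± 6.82 CPM in NT cells (1.33 ± 0.218, adjusted p = 7.26e-05). Ptch1, another target and the receptor of Shh, averaged 515 ± 13.8 CPM in Ezh2 cells and 574 ± 18.5 CPM in NT cells and did not pass (adjusted p = 0.23). Nkx6-1, a ventral homeodomain factor, averaged 47.2 ± 6.38 CPM in Ezh2 cells and 58.6 ± 14.9 CPM in NT cells (adjusted p = 0.637). Hhip, also of this list, was called higher (adjusted p = 0.0452). That call was lost when any library other than NT replicate 1 was left out (up to 0.275), and 3 genes of the list then rose.

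**Figure D2:**
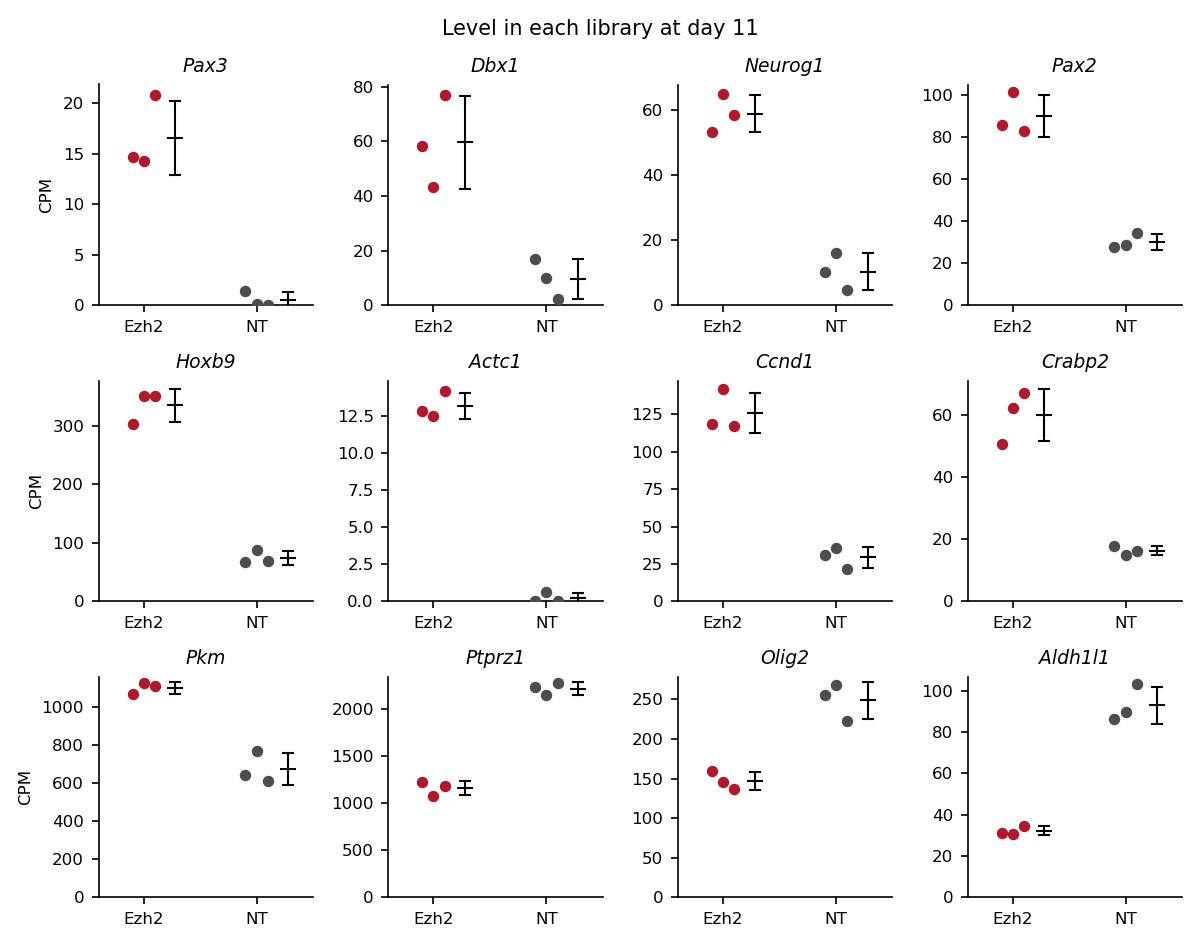
CPM of 12 genes in each of the 3 Ezh2 (left, red) and 3 NT (right, grey) libraries at day 11, with the mean and SD as a black bar. Pax3, Dbx1, Neurog1, Pax2, Hoxb9, Actc1, Ccnd1, Crabp2 and Pkm are higher, and Ptprz1, Olig2 and Aldh1l1 lower, in every Ezh2 library than in any NT library.

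Among genes that mark neural progenitors at large, 3 of 16 rose and 4 fell (background 5.22% and 2.7%), with a median log2 fold change of -0.08. Pax6, a factor of intermediate and dorsal progenitors, rose 3.44-fold, with 51.6, 48.8 and 68.8 CPM in Ezh2 libraries and 16.3, 13.9 and 19.2 CPM in NT libraries (adjusted p = 4.38e-07). Fabp7, a fatty acid binding protein of radial glia, fell to 238 ± 33.8 CPM in Ezh2 cells, against 395 ± 15.1 CPM in NT cells (-0.74 ± 0.163, adjusted p = 0.00256). Rfx4, a factor of cilia and dorsoventral patterning, fell as well (-0.60 ± 0.115, adjusted p = 0.000538), as did Nes and Sox1 (-0.41 and -0.44). The Nes call was lost without Ezh2 replicate 2 (adjusted p = 0.111), the Sox1 call when any library other than NT replicate 1 was left out (up to 0.202), and 2 genes of the list fell without Ezh2 replicate 2. Of 18 Notch genes 6 rose and 3 fell (background 5.22% and 2.7%). Hes5, a target of Notch in progenitors, rose (74.4 ± 2.91 CPM in Ezh2 cells against 43.8 ± 7.76 CPM in NT cells, 0.76 ± 0.207, adjusted p = 0.015; 0.0858 without NT replicate 1), while the receptors Notch2 and Notch3 fell by 0.45 each on the log2 scale (adjusted p = 0.000377 and 8.13e-05). Without Ezh2 replicate 2, Ezh2 replicate 3 or NT replicate 3 the risen Notch genes numbered 3.

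Several genes that start neurogenesis rose. Of 26 neurogenesis and pan-neuronal genes 7 rose and 0 fell (background 5.22% and 2.7%), and the 7 were Neurog1, Neurog2, Neurod1, Neurod4, Insm1, Ebf1 and Ebf2. With low counts kept 1 member was called lower, and with only the groups compared 2 were. Neurog1 (chr13:56250478-56252163, minus strand), a proneural factor, measured 53.3, 64.7 and 58.4 CPM in Ezh2 libraries and 10.2, 16.0 and 4.83 CPM in NT libraries. The groups were wide apart, 5.65-fold (2.50 ± 0.288, adjusted p = 4.35e-07). Neurod4, which acts after the neurogenins, averaged 94.4 ± 7.17 CPM in Ezh2 cells and 35.8 ± 5.89 CPM in NT cells (1.40 ± 0.155, adjusted p = 2.38e-07). Tubb3 (adjusted p = 0.472), Dcx (0.942), Map2 (0.442) and Syp (0.885) were among the 19 that did not pass, with log2 fold changes of 0.12, -0.02, -0.15 and 0.04.

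Interneuron genes rose and motor neuron genes mostly did not pass. Of 28 spinal interneuron genes 14 rose and 0 fell (background 5.22% and 2.7%), with a median log2 fold change of 1.32. The count was 8 without Ezh2 replicate 1 and 9 without Ezh2 replicate 2. Pax2 (chr19:44756045-44837871, plus strand), a factor of inhibitory interneurons, measured 85.6, 101 and 82.7 CPM in Ezh2 libraries and 27.6, 28.5 and 34.6 CPM in NT libraries (1.57 ± 0.206, adjusted p = 3.15e-06). Lhx1, a factor of V0 and V1 interneurons among others, was almost even within each group, at 107, 105 and 104 CPM in Ezh2 libraries and 47.4, 55.7 and 55.8 CPM in NT libraries (0.99 ± 0.121, adjusted p = 9.99e-07). Evx1, of the V0 class, averaged 22.6 ± 1.00 CPM in Ezh2 cells and 8.74 ± 1.71 CPM in NT cells (1.36 ± 0.318, adjusted p = 0.00427). Enzymes and transporters of inhibitory transmission rose with them, Gad2 by 1.17 ± 0.192 (adjusted p = 6.97e-05) and Gad1, Slc32a1 and Slc6a5 by 0.97 to 1.29. Slc17a6, the glutamate transporter of excitatory neurons, measured 17.3, 13.6 and 18.0 CPM in Ezh2 libraries and 13.3, 18.3 and 13.5 CPM in NT libraries (adjusted p = 0.921). Lhx9, Barhl1 and Barhl2, all of dorsal dI1 interneurons, were at 8.16, 7.37 and 7.02 CPM in Ezh2 replicate 1 and at 0.248 to 2.19 CPM in the other Ezh2 libraries, and without that library their adjusted p was 0.153, 0.123 and 0.130. Barhl1 was also lost without NT replicate 2 or 3 (0.0887 and 0.117), and Barhl2 without any 1 of the NT libraries (0.0714 to 0.0947) and by the DESeq2 Wald test (0.0662). The V2 factors Gata2 and Gata3 did not pass (adjusted p = 0.964 and 0.672). Of 17 motor neuron genes 2 were called higher (background 5.22%), Isl2 and Prph, and both were lost with only the groups compared (adjusted p = 0.103 and 0.0574), without Ezh2 replicate 2 (adjusted p = 0.109 and 0.102) and without NT replicate 1 (0.0532 and 0.129). Isl2 was also lost without NT replicate 2 (0.0697), and Prph without Ezh2 replicates 1 and 3 and NT replicate 3 (up to 0.176). Mnx1 averaged 15.9 ± 2.35 CPM in Ezh2 cells and 15.3 ± 7.35 CPM in NT cells, and Slc18a3, the acetylcholine transporter of vesicles, 48.0 ± 4.04 CPM in Ezh2 cells and 47.0 ± 5.33 CPM in NT cells (adjusted p = 0.94 and 0.961).

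Gliogenic and astroglial genes held the most falling members of any list. Of 23 tested, 8 fell and 1 rose (background 2.7% and 5.22%), with a median log2 fold change of -0.54, and 5 fell when any Ezh2 library or NT replicate 3 was left out. Ptprz1 (chr6:22875502-23052916, plus strand), a cell-surface tyrosine phosphatase found on radial glia, measured 1226, 1077 and 1178 CPM in Ezh2 libraries and 2232, 2145 and 2278 CPM in NT libraries. The gap between groups was far wider than the spread within them (-0.93 ± 0.146, adjusted p = 3.88e-05). Nfix, a nuclear factor I gene of the switch to glia, fell to 67.7, 56.1 and 56.3 CPM in Ezh2 libraries, against 115, 136 and 119 CPM in NT libraries (-1.04 ± 0.185, adjusted p = 0.000216), and Nfia and Nfib fell by 0.63 and 0.70. Aldh1l1 (chr6:90486427-90600203, plus strand), a folate enzyme of astrocytes, had 31.1, 30.7 and 34.8 CPM in Ezh2 libraries against 86.4, 89.5 and 103 CPM in NT libraries (-1.53 ± 0.344, adjusted p = 0.00302). Sox8, a glial factor of the SoxE group, fell by 0.81 ± 0.191 (adjusted p = 0.00444), whereas Sox9 averaged 353 ± 29.8 CPM in Ezh2 cells and 410.3 ± 11.7 CPM in NT cells (adjusted p = 0.336). Slc1a2, a glutamate transporter, was the gene that rose (0.46 ± 0.103, adjusted p = 0.00265), a call lost with only the groups compared.

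In the oligodendrocyte lineage 2 of 18 genes fell and 0 rose (background 2.7% and 5.22%), with a median log2 fold change of -0.48. Olig1, the partner of Olig2, measured 59.1, 55.2 and 43.9 CPM in Ezh2 libraries and 126, 154 and 97.3 CPM in NT libraries (-1.26 ± 0.299, adjusted p = 0.00505). Gpr17, a receptor of committed precursors, fell by 0.91 ± 0.232 (adjusted p = 0.00991; 0.0699 without Ezh2 replicate 3). Pdgfra, the growth factor receptor of precursors, had 42.2, 36.4 and 29.4 CPM in Ezh2 libraries and 67.1, 75.04 and 51.0 CPM in NT libraries, which did not overlap, and did not pass (adjusted p = 0.118). Sox10, which marks both this lineage and neural crest, varied between replicates: 76.6, 156 and 69.6 CPM in Ezh2 libraries against 107, 108 and 81.4 CPM in NT libraries. Ezh2 replicate 2 stood above and the other Ezh2 libraries below every NT library, and the log2 fold change of 0.03 turned to -0.44 without Ezh2 replicate 2 and to -0.10 without NT replicate 3.

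Hox genes set position along the body, with groups 6 to 9 expressed at trunk level. Of 12 genes of groups 6 to 9 5 rose (background 5.22%), with a median log2 fold change of 1.64, and 3 did without Ezh2 replicate 2. Of 15 genes of groups 1 to 5 2 rose, Hoxb1 and Hoxd4, with a median of 0.21. Hoxb9 (chr11:96271457-96276595, plus strand), the most posterior HoxB gene of this list, measured 303, 351 and 351 CPM in Ezh2 libraries and 67.4, 88.6 and 68.8 CPM in NT libraries (2.16 ± 0.297, adjusted p = 6.64e-06). Its neighbour Hoxb8 averaged 298 ± 22.3 CPM in Ezh2 cells and 241 ± 28.7 CPM in NT cells and did not pass (adjusted p = 0.172). Hoxb6 averaged 123 ± 11.8 CPM in Ezh2 cells and 119 ± 9.80 CPM in NT cells (adjusted p = 0.904). Hoxa7 rose 6.52-fold and Hoxd8 3.00-fold (adjusted p = 0.00265 and 0.00356). None of 8 genes of groups 10 to 13 passed by edgeR with all libraries. Of these, 5 were higher at an unadjusted p under 0.05, 2 were called higher by the DESeq2 Wald test and 1 without NT replicate 1. They summed to 1.49 to 5.12 CPM in Ezh2 libraries and 0 to 0.465 CPM in NT libraries, and their median log2 fold change was 1.85 with absent genes at their bound.

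Genes of the sarcomere, the contractile unit of muscle, rose in Ezh2 cells. Of 21 muscle genes 10 rose and 0 fell (background 5.22% and 2.7%), with a median log2 fold change of 3.85 (3.20 with absent genes at their bound). Summed over the list they reached 104 to 151 CPM in Ezh2 libraries and 3.92 to 30.1 CPM in NT libraries. Actc1 (chr2:114047282-114053548, minus strand), cardiac actin, measured 12.8, 12.5 and 14.1 CPM in Ezh2 libraries and 0, 0.649 and 0 CPM in NT libraries (5.92 ± 0.975, adjusted p = 7.65e-05). Ttn (chr2:76703980-76982547, minus strand), the giant spring protein of the sarcomere, measured 46.1, 65.1 and 69.7 CPM in Ezh2 libraries and 1.94, 15.5 and 2.52 CPM in NT libraries (3.20 ± 0.644, adjusted p = 0.000959). NT replicate 2 held most of the muscle transcript of its group. Myl1 had 139 counts over the Ezh2 libraries and 2 over the NT libraries, a ratio of rates of 43.1 (95% counting limits 11.7 to 359; adjusted p = 0.0026), and Tnni1, a troponin, was at least 33.0-fold higher in Ezh2 cells (adjusted p = 0.00432). The factors that determine skeletal muscle were low: Myod1 measured 0, 0.199 and 0.263 CPM in Ezh2 libraries and 0 in NT libraries, and Myog 1.75, 1.99 and 1.10 CPM in Ezh2 libraries and 0, 0.371 and 0 CPM in NT libraries (adjusted p = 0.387 and 0.0887). Ckm and Myl7 had 0 counts in all 6 libraries.

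Genes of neural crest, epithelium and other lineages were measured next. Neural crest had 3 higher and 2 lower genes of 14 (background 5.22% and 2.7%), and 1 lower gene when Ezh2 replicate 3 was left out. Foxd3, an early crest factor, measured 16.4, 31.6 and 15.5 CPM in Ezh2 libraries and 2.87, 7.23 and 4.33 CPM in NT libraries (2.15 ± 0.472, adjusted p = 0.0024), and Tfap2a, expressed in crest and dorsal interneurons, averaged 39.6 ± 11.9 CPM in Ezh2 cells and 9.96 ± 7.47 CPM in NT cells (1.99 ± 0.483, adjusted p = 0.0063; 0.0709 without NT replicate 3). Ednrb, an endothelin receptor also found in radial glia, fell to 563 ± 16.8 CPM in Ezh2 cells, against 786 ± 35.1 CPM in NT cells (-0.48 ± 0.0976, adjusted p = 0.000991). Of 27 epithelial genes 2 were called higher (background 5.22%), Krt4 and Upk1b, both under 2 CPM in every library. Both calls were lost when Ezh2 replicate 2 or any NT library was left out, with DESeq2 size factors (adjusted p = 0.0506 and 0.0503) and by the DESeq2 Wald test. Krt4 was also lost without Ezh2 replicate 3 (0.0517) and Upk1b without Ezh2 replicate 1 (0.0677). Other settings added calls. With low counts kept, 7 of the 27 were called higher, and without NT replicate 2 the 2 called were other members. The 27 summed to 26.5 to 89.7 CPM in Ezh2 libraries and 30.4 to 50.0 CPM in NT libraries. Of 43 regulators of other lineages 3 were called higher, among them Tbx2 and Shox2, a share near the background of 5.22%, with a median log2 fold change of 0.01, and 0 were called without NT replicate 3, without NT replicate 1 or without Ezh2 replicate 2.

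Cell cycle genes rose in Ezh2 cells. Of 24 mitosis genes 21 rose and of 25 replication genes 15 rose (background 5.22%), with 0 falling in either list and medians of 0.60 and 0.52 on the log2 scale. Summed mitosis transcript was 1930 to 2217 CPM in Ezh2 libraries and 1344 to 1369 CPM in NT libraries. Mki67, a mark of cycling cells, averaged 465 ± 65.8 CPM in Ezh2 cells and 297 ± 5.72 CPM in NT cells (0.64 ± 0.112, adjusted p = 0.000172). E2f1, the factor of S phase entry, rose 2.76-fold, to 26.4, 21.0 and 22.3 CPM in Ezh2 libraries, against 8.21, 9.83 and 7.04 CPM in NT libraries (adjusted p = 1.04e-06). Ccnd1 (chr7:144929931-144939925, minus strand), cyclin D1, measured 119, 142 and 117 CPM in Ezh2 libraries and 31.0, 35.7 and 21.7 CPM in NT libraries, 4.26-fold higher (2.09 ± 0.21, adjusted p = 3.53e-08). Ccnd2 rose 1.41-fold, a call lost when any library other than NT replicate 2 was left out (adjusted p up to 0.124), and its kinase partner Cdk4 did not pass (262 ± 4.02 CPM in Ezh2 cells, 244 ± 9.62 CPM in NT cells, adjusted p = 0.426). Inhibitors of the cycle also rose: Cdkn1a (p21) to 49.0 ± 4.61 CPM in Ezh2 cells, against 28.2 ± 1.42 CPM in NT cells (0.79 ± 0.128, adjusted p = 6.07e-05), and Cdkn1c (p57) by 0.52 ± 0.119 (adjusted p = 0.00383). Cdkn2a, the Ink4a and Arf locus that PRC2 silences in many cells, stayed low at 3.86, 4.47 and 1.67 CPM in Ezh2 libraries and 2.17, 1.11 and 3.02 CPM in NT libraries (adjusted p = 0.45). Of 22 p53 targets 3 rose, among them Cdkn1a and Pmaip1 (lost with only the groups compared, adjusted p = 0.129), and 5 did without NT replicate 2. Of 9 genes typical of early development 4 rose (Lin28b, Hmga2, Igf2bp1 and Igf2bp3). Of these, 2 did without Ezh2 replicate 1 and 1 without NT replicate 3, where Igf2bp1, an RNA-binding protein, was still called (0.41 ± 0.0941 with all libraries, adjusted p = 0.00347).

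Glycolytic and sterol genes rose. Of 26 genes of glycolysis and the hypoxia response 18 rose and 0 fell (background 5.22% and 2.7%), with a median log2 fold change of 0.89. Pkm, pyruvate kinase, measured 1066, 1126 and 1113 CPM in Ezh2 libraries and 641, 769 and 609 CPM in NT libraries (0.71 ± 0.109, adjusted p = 3.22e-05). Ldha, lactate dehydrogenase, had 278, 287 and 243 CPM in Ezh2 libraries against 77.6, 130 and 97.1 CPM in NT libraries (1.41 ± 0.326, adjusted p = 0.00398). Vegfa, a hypoxia target, had 187, 187 and 177 CPM in Ezh2 libraries against 77.7, 111 and 107 CPM in NT libraries (0.90 ± 0.157, adjusted p = 0.00017). No Ezh2 library overlapped an NT library in these 3 genes. Of 23 cholesterol synthesis genes 12 rose and 0 fell, by small amounts (median 0.32). Fdps, farnesyl diphosphate synthase, averaged 129 ± 7.23 CPM in Ezh2 cells and 83.0 ± 3.62 CPM in NT cells (0.64 ± 0.0938, adjusted p = 1.59e-05). Of 18 amino acid response genes 4 rose and 1 fell. Psat1, of serine synthesis, rose, at 106 ± 9.80 CPM in Ezh2 cells and 62.2 ± 6.99 CPM in NT cells (0.77 ± 0.154, adjusted p = 0.000851). Phgdh, of the same pathway, was the 1 lower gene, at 102, 92.2 and 103 CPM in Ezh2 libraries and 123, 127 and 131 CPM in NT libraries (-0.36 ± 0.112, adjusted p = 0.0381), a call lost when any 1 library was left out (0.0526 to 0.157).

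Single signalling genes changed. Of 16 genes of retinoic acid metabolism and reception 2 rose (background 5.22%), both binding proteins of retinoic acid. Crabp2 (chr3:87948666-87953376, plus strand) measured 50.5, 62.2 and 66.8 CPM in Ezh2 libraries and 17.8, 14.8 and 16.2 CPM in NT libraries (1.88 ± 0.182, adjusted p = 2.34e-08). Crabp1 measured 71.0, 89.5 and 71.6 CPM in Ezh2 libraries and 31.3, 37.2 and 23.2 CPM in NT libraries (1.34 ± 0.137, adjusted p = 3.8e-08). Of 24 Wnt, BMP and Id genes 4 rose (2 without Ezh2 replicate 1) and 1 fell (background 5.22% and 2.7%). Wnt7b, a Wnt ligand of the intermediate and dorsal cord, rose 2.33-fold (53.1 ± 4.29 CPM in Ezh2 cells, 22.8 ± 7.03 CPM in NT cells, adjusted p = 5.43e-06). Among 28 axon guidance genes 1 rose and 4 fell (background 5.22% and 2.7%). Ntn1, the netrin made by floor plate and ventricular cells, had 430, 415 and 445 CPM in Ezh2 libraries against 727, 823 and 772 CPM in NT libraries (-0.85 ± 0.107, adjusted p = 1.67e-06), and Slit1, a repellent, fell to 302, 319 and 328 CPM in Ezh2 libraries, against 595, 620 and 624 CPM in NT libraries (-0.95 ± 0.155, adjusted p = 6.56e-05). Of 26 imprinted genes 2 rose and 2 fell (background 5.22% and 2.7%), and 1 rose when any library other than NT replicate 2 was left out. Peg3, expressed from the paternal copy, fell to 488, 472 and 549 CPM in Ezh2 libraries, against 746, 736 and 715 CPM in NT libraries (-0.54 ± 0.0907, adjusted p = 9.42e-05). None of 27 collagen genes, 12 mesoderm markers, 7 endoderm markers or 7 tested germline genes passed by edgeR with low counts left out or by DESeq2. Of all these, 1 endoderm marker was higher at an unadjusted p under 0.05. With low counts kept, 1 collagen gene was called lower and 1 mesoderm marker higher.

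Outside the groups above, Hes2, a Hairy-related repressor, measured 3.60, 2.04 and 2.24 CPM in Ezh2 libraries and 0.310, 0 and 0 CPM in NT libraries (4.40 ± 0.803, adjusted p = 0.000323). Among the genes that fell, Zscan4c, of a cluster expressed in 2-cell embryos and in rare stem cells, had 2 counts over the Ezh2 libraries and 108 over the NT libraries, 87.2-fold lower in rate in Ezh2 cells (95% counting limits 23.6 to 729; adjusted p = 0.000851). The Zscan4c call was kept with each library left out in turn. Its fall was smallest without NT replicate 3, with a log2 fold change of -5.19 (adjusted p = 0.013), against -6.16 with all libraries. The near copy Zscan4f shares sequence with Zscan4c, so how reads split between the copies is uncertain. The 17 pluripotency genes had a median log2 fold change of -0.98, and with low counts kept 3 of them were called lower and 1 higher. Esrrb, a pluripotency factor, was the only member called by edgeR with low counts left out (background 7.91% in either direction). It was higher in Ezh2 cells, with 12.5, 30.2 and 15.5 CPM in Ezh2 libraries and 11.2, 10.7 and 5.94 CPM in NT libraries. Ezh2 replicate 2 was the highest (adjusted p = 0.0251; 0.341 without it), and the call was also lost without NT replicate 3 (0.179) and with only the groups compared (0.087). Kdr, an endothelial receptor also expressed in neural cells, fell to 1.89 ± 0.269 CPM in Ezh2 cells, against 7.49 ± 1.35 CPM in NT cells (-1.99 ± 0.454, adjusted p = 0.00348). Summed endothelial and blood markers, Kdr among them, ran from 12.9 to 21.0 CPM in Ezh2 libraries and from 24.8 to 36.6 CPM in NT libraries, without overlap, and their part in that fall was not tested. Capn6, a calpain-related protein, and Csmd1, a large membrane protein of the brain, fell by 1.42 ± 0.266 and 1.30 ± 0.203 (adjusted p = 0.000446 and 4e-05). A protocadherin entry, Pcdha7-g, had no count in NT libraries and 5.97, 6.86 and 12.6 CPM in Ezh2 libraries, but protocadherin alpha genes share exons, so its value is uncertain, and the call was lost without any 1 of the NT libraries (adjusted p = 0.0515 to 0.0703).

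Fewer genes were called at the earlier days. At day 7 23 genes were called (0.151% of those tested), 13 higher (0.0855%) and 10 lower (0.0658%), and at day 9 0 were called by edgeR (685 at an unadjusted p under 0.05, 4.51%, and 6 by DESeq2). The day 7 count was 11, 0 and 61 without Ezh2 replicates 1, 2 and 3 of that day, and 3, 2 and 2 without NT replicates 1, 2 and 3. Other fits gave more calls at day 7, mostly lower. They were 190 by the DESeq2 Wald test (72 higher and 118 lower) and 353 with low counts kept (131 and 222). A fit to the compared groups alone gave 448 (155 and 293). Of the 23 genes 7 were also called at day 11, 5 in the same direction. Of the 1203 genes called at day 11, 944 had a day 9 value of the same sign and 864 a day 7 value of the same sign. The shares over all genes tested are not given here, so these counts do not show an earlier effect. Among genes called higher at day 7 were Hoxb9 (1.68, adjusted p = 0.0133), Zic1 (1.56, adjusted p = 0.0305) and Sox10 (3.04, adjusted p = 0.0263), each lost without Ezh2 replicate 2 or NT replicates 2 or 3 of that day, and Zic1 and Sox10 also without Ezh2 replicate 1 or NT replicate 1 (adjusted p up to 0.284 for Hoxb9 and Zic1 and 0.379 for Sox10). Hoxb9 measured 108, 154 and 96.6 CPM in Ezh2 libraries and 46.3, 40.2 and 24.0 CPM in NT libraries at that day.

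The change in the effect itself was tested. Between day 7 and day 11 it differed for 215 genes (1.41%), 153 towards higher (1.01%) and 62 towards lower (0.408%) in Ezh2 cells. Between day 9 and day 11 it differed for 61 genes (0.401%), 44 towards higher (0.289%) and 17 towards lower (0.112%). The first count fell to between 116 and 141 when 1 library was left out, for each of Ezh2 replicates 2 and 3 and NT replicate 3 of day 11, and Ezh2 replicates 1 and 2 and every NT replicate of day 7. The second fell to between 12 and 36 likewise, for every Ezh2 replicate and NT replicate 3 of day 11 and Ezh2 replicates 1 and 2 and NT replicate 2 of day 9, and was 91 without Ezh2 replicate 3 of day 9. Of the 26 neurogenesis genes 10 shifted upwards and 1 downwards from day 7 to day 11. Neurog1 measured 58.9, 56.8 and 60.9 CPM in Ezh2 libraries and 63.4, 47.3 and 39.1 CPM in NT libraries at day 7, with the groups overlapping. Its effect at day 11 exceeded that at day 7 by 2.27 (adjusted p = 0.000905) and that at day 9 by 1.96 (adjusted p = 0.0136; up to 0.0579 without 1 of NT replicate 3 of day 11, Ezh2 replicate 1 or NT replicate 2 of day 9). At day 7 Crabp2 had 208, 231 and 220 CPM in Ezh2 libraries, all slightly above the 200.4, 201 and 207 CPM in NT libraries, and its effect grew by 1.76 to day 11 (adjusted p = 5.61e-05). Ccnd1 grew by 1.59 over the same days (adjusted p = 0.00148). Ntn1 shifted the other way by -0.94 (adjusted p = 0.000559). Ptprz1 averaged 127, 808 and 1161 CPM at days 7, 9 and 11 in Ezh2 cells, and 159, 923 and 2218 CPM in NT cells. Its change of effect did not pass (-0.60, adjusted p = 0.154, from day 7, and -0.74, adjusted p = 0.0908, from day 9). For Dbx1 and Hoxb9 too the change from day 7 did not pass (1.16 and 0.48, adjusted p = 0.27 and 0.7). At day 9 the 26 glycolysis genes had a median log2 fold change of 0.62 with 0 called by edgeR (18 higher at an unadjusted p under 0.05), and at day 7 a median of 0.10.

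**Figure D3:**
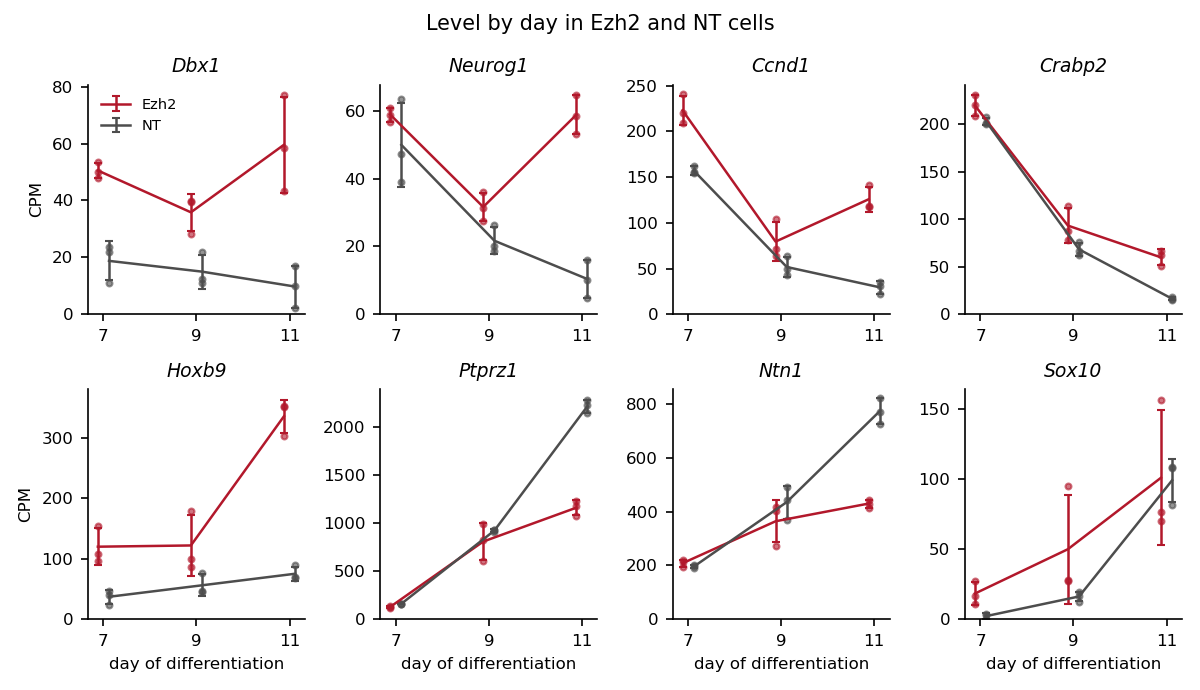
CPM of 8 genes at days 7, 9 and 11 in Ezh2 (red) and NT (grey) cells, with points for the 3 libraries and lines through the means with SD. Neurog1 libraries overlap at day 7 and are apart at day 11, those of Ccnd1 and Crabp2 are apart at days 7 and 11 with a wider gap in proportion at day 11, those of Dbx1 and Hoxb9 are higher in Ezh2 cells on every day, and those of Ptprz1 and Ntn1 are far lower in Ezh2 cells at day 11.

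Ezh2 cells were last set against Eed cells of day 11 directly, since Eed is another core subunit of the same complex. The test uses no NT library. Here 438 genes differed (2.88%), 206 higher in Ezh2 cells (1.35%) and 232 lower (1.53%), of which 10 (0.0658%) and 95 (0.625%) by at least 2-fold. The count was 95 without Ezh2 replicate 3, 149 without Ezh2 replicate 1, 227 without Eed replicate 2 and 99 without Eed replicate 3. A fit to these 6 libraries alone gave 186 higher and 323 lower. Epithelial genes were lower in Ezh2 than in Eed cells: 16 of 27 were lower in Ezh2 cells and 0 higher, with a median log2 fold change of -3.49 (0.01 over all genes tested). Cdh1, E-cadherin, measured 2.90, 20.9 and 7.20 CPM in Ezh2 libraries and 74.8, 133 and 152 CPM in Eed libraries (-3.49 ± 0.499, adjusted p = 9.94e-05). Krt5, a basal keratin, measured 2.19, 8.35 and 1.80 CPM in Ezh2 libraries and 38.7, 78.9 and 78.5 CPM in Eed libraries (-3.97 ± 0.768, adjusted p = 0.00271). Ezh2 replicate 2 was the highest of its group in both and still below every Eed library.

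Several glial and oligodendrocyte genes were higher in Ezh2 than in Eed cells. Of 23 gliogenic genes 5 were higher and 1 lower, and of 18 oligodendrocyte genes 4 were higher and 0 lower (background against Eed 1.35% and 1.53%). Olig1 measured 59.1, 55.2 and 43.9 CPM in Ezh2 libraries and 17.6, 8.61 and 9.52 CPM in Eed libraries (2.10 ± 0.322, adjusted p = 0.000273). Ptprz1 averaged 1161 ± 76.0 CPM in Ezh2 cells, with 687, 559 and 626 CPM in the Eed libraries (0.90 ± 0.146, adjusted p = 0.00043). Olig2 was 0.96 ± 0.165 higher (adjusted p = 0.000778). Among cell cycle genes the inhibitor Cdkn1a (-0.78 ± 0.123, adjusted p = 0.000273) and cyclin Ccnd2 (-0.75 ± 0.143, adjusted p = 0.00216) were lower in Ezh2 than in Eed cells, as were 8 of 22 p53 targets and 5 of 24 mitosis genes. None of the dorsal, interneuron, Hox or muscle genes passed against Eed by edgeR, and at an unadjusted p under 0.05 1 dorsal, 3 muscle and 2 Hox genes of groups 10 to 13 were lower and 1 interneuron gene and 1 Hox gene of groups 1 to 5 higher in Ezh2 cells. Their medians were -0.38 for the dorsal and -0.89 for the muscle list, and Pax3, at 26.6, 30.5 and 32.9 CPM in Eed libraries, differed by -0.85 ± 0.458 (adjusted p = 0.359). Such values do not show that the levels were alike.

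**Figure D4:**
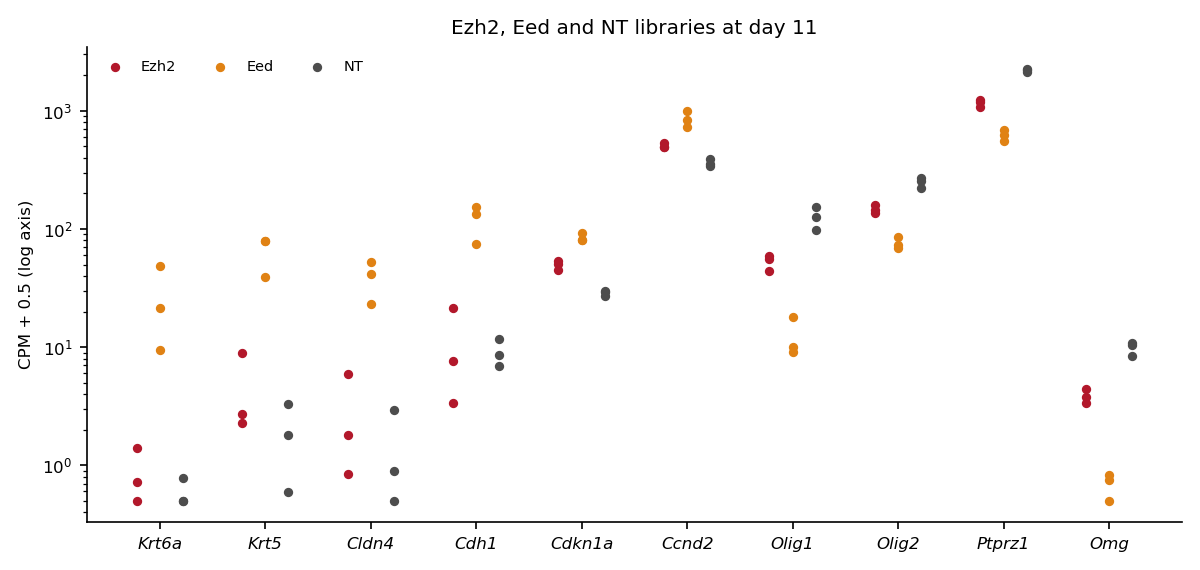
CPM plus 0.5 on a log axis for 10 genes in each library at day 11, with Ezh2 (red), Eed (orange) and NT (grey) side by side. The keratins, Cldn4 and Cdh1 are higher in every Eed library than in any Ezh2 library, while Olig1, Olig2, Ptprz1 and Omg lie between Eed and NT in the Ezh2 libraries.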

How the data were processed

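Directional, ribodepleted RNA libraries were sequenced, per the labels' protocols. The authors deposited a table of raw estimated counts for each gene symbol in each library, with no scaling. Fractions made up 2.95% of its values, and every value was rounded to a whole number. Build mm10 and DESeq2, without a version, appear in the submitters' processing notes. Aligner, quantifier and annotation: not given in the sources used here. Library titles gave guide, day and replicate.

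Genes passing edgeR 4.0.16's filterByExpr by group (15204, with 9206 left out) were scaled by TMM in R 4.3.3. A single quasi-likelihood model then fitted the mean of each of 15 groups to 41 libraries, so each gene's spread comes from all groups. P-values were two-sided and Benjamini-Hochberg adjusted over all genes tested (threshold 0.05). Levels are CPM ± SD, and log2 fold changes are the model's ± SE. With 0 counts in one group the fold is bounded using 3 counts summed over its libraries, and with 1 to 3 counts the ratio of rates has 95% exact binomial limits. Replicates differed by more than sampling noise (chi-square per degree of freedom 9.83 to 15.6).

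The members and the 38 gene lists were chosen with earlier results of these data known. The naming rule took Ezh2 and PRC2 subunits, the 12 highest and 12 lowest fold changes at day 11 (4 in other comparisons) among called, non-overlapping genes of at least 2 CPM, and up to 4 members per list and direction by adjusted p. For genes named by fold change, such as Pax3 and Actc1, the lack of overlap between groups was set by the rule. Some of these are not reported here, and more list members were named once their values were known. GENCODE M21 (GRCm38) gave positions by symbol, and RefSeq GRCm38.p6 the promoter windows. Alternatives were size factors from DESeq2, its Wald test (version 1.42.0), omission of the filter on low counts, a block for replicate number, a fit to the compared groups alone, removal of Rn45s, and omission of each replicate. The day 11 comparison was also run on simulated counts, whose spread depended on expression level and not on the gene. That run does not bear on single calls.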

Additional observations from a re-analysis of the deposited data

Results flagged for a closer look

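The effect of Ezh2 guides differed between days by a direct test for 215 genes between day 7 and day 11 and for 61 genes between day 9 and day 11. Where a group had no counts at 1 day, the difference depends on the prior count. Values below are the difference in log2 fold change of Ezh2 over NT, day 11 minus the earlier day.

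Against day 7, the effect was higher at day 11 for Dbx2 (6.03, adjusted p = 0.00101), Acbd4 (4.67, adjusted p = 0.00337), Sec31b (7.75, adjusted p = 0.0194) and Actc1 (4.93, adjusted p = 0.0499). Dbx2 measured 0.306, 0.204 and 0.483 CPM in Ezh2 libraries and 2.75, 1.77 and 1.23 CPM in NT libraries at day 7, the reverse of the order at day 11, where it measured 2.19, 2.73 and 7.77 CPM in Ezh2 libraries and 0.774, 0.278 and 0 CPM in NT libraries. The effect was lower at day 11 for Neurog3 (-7.13, adjusted p = 0.0168), Sox10 (-3.01, adjusted p = 0.0291), Scarf2 (-2.30, adjusted p = 0.037) and Kctd12b (-2.20, adjusted p = 0.0493). Neurog3 measured 0.306, 1.02 and 0.193 CPM in Ezh2 libraries and 0 in NT libraries at day 7, and 4.91, 3.38 and 6.85 CPM in Ezh2 libraries against 9.91, 12.1 and 12.9 CPM in NT libraries at day 11.

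Against day 9, the effect was higher at day 11 for Neurog1 (1.96), Neurod4 (1.48), Ccnd1 (1.47) and Chrnb4 (1.45), a nicotinic receptor subunit, with adjusted p from 0.000422 to 0.0168. It was lower for Car2 (-2.40, adjusted p = 0.0325), Capn6 (-1.65, adjusted p = 0.0351), Csmd1 (-1.28, adjusted p = 0.0412) and Lrig3 (-1.22, adjusted p = 0.015). Car2 in NT cells at day 11 rests on NT replicate 3, with 22.3 CPM there against 5.89 and 6.77 CPM in the other NT libraries.

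Most of these calls were not kept with every library left out in turn, which also lowers the power of the test. Dbx2, Acbd4 and Neurod4 kept theirs with each library left out in turn, and each of the others lost it without at least 1 library, with adjusted p up to 0.207, for Car2 without NT replicate 3 of day 11.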

How the results depend on the processing

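The day 11 count of 1203 genes was 1221 with DESeq2 size factors, 1468 by the DESeq2 Wald test, 1508 with low counts kept, 806 in a fit of the compared groups alone, 1210 without Rn45s, and 702 to 1177 with each library left out. Scaling moved the median of all genes by at most 0.0233. Of the 1203 calls 422 held in every alternative, as did 88 of the 140 named genes called at day 11. Same-numbered Ezh2 and NT libraries did not deviate together (correlations of -0.00743, 0.0798 and -0.0053), and with the replicate number as a block 1238 genes were called, with Krt4 (adjusted p = 0.0709) and Upk1b (0.0683) no longer among them, and the change of Actc1 from day 7 no longer passed. Keeping low counts gave 353 calls at day 7, 123 at day 9, 596 and 406 for the changes from days 7 and 9, and 951 against Eed. By the DESeq2 Wald test these were 190, 6, 369, 167 and 661. Fitting the compared groups alone gave 448 at day 7, 12 at day 9 and 344 for the change from day 7. Leaving out each library gave 0 to 61 at day 7, 0 to 9 at day 9, 116 to 252 and 12 to 91 for the changes from days 7 and 9, and 95 to 445 against Eed. The log2 fold change of 3 named genes, none of them called, turned sign when a library was left out: Ezh1 ran from -0.11 to 0.14, Phf1 from -0.13 to 0.079 and Sox10 from -0.44 to 0.24. The causes were not tested. Genes under about 1 CPM rest on few counts.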
